A study of Mus musculus with 6 samples.

Results

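The genes Ifitm1, Ifitm2, Ifitm3 and Ifitm6, which encode interferon-induced transmembrane proteins, were followed in mouse neutrophils that either depolarized or stayed polarized after a calcium ionophore. They were taken by symbol from the deposited gene tables, so that 4 of 41388 listed genes are described, and all 4 passed the filter on low counts that left 9971 genes to be tested. Neutrophils from the bone marrow of C57BL/6 mice were loaded with 250 nM DiBAC4(3), an anionic dye that enters cells more as they depolarize, and then received 100 nM ionomycin, which lets calcium into the cytosol. Between 2 and 4 minutes later 20000 cells were collected on a sorter by their dye signal, as a depolarized and a polarized population. Both populations had therefore been given dye and ionomycin, no unstimulated cells are among the groups, and the labels give neither the age nor the number of the animals. There are 3 libraries per population, which the series describes as pairs from separate biological replicates. They are named pair A, pair B and pair C here, in the order of the number that ends each title. One library, the depolarized one of pair B, has a run label of its own whose meaning is not given.

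IFITM proteins are small membrane proteins of the CD225 (dispanin) family that hinder the fusion of enveloped viruses with cell membranes. IFITM3 and IFITM2 act mainly in endosomes and IFITM1 more at the cell surface, and type I and type II interferons raise the transcription of these 3 genes. Ifitm6 is a rodent paralog that is known from myeloid cells and is less well studied. The 4 genes lie side by side on chromosome 7 of GRCm38, within 62.1 kb. In the order of the deposited coordinates these are Ifitm2 (chr7:140954839-140955961, minus strand), Ifitm1 (chr7:140967221-140969825, plus strand), Ifitm3 (chr7:141009586-141010770, minus strand) and Ifitm6 (chr7:141015812-141016892, minus strand). Over the aligned coding sequence of GENCODE M21, Ifitm1, Ifitm2 and Ifitm3 were 80.8% to 81.9% identical to each other, and Ifitm6 was 69.7% to 70.3% identical to them.

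The stretches before the RefSeq starts of the 4 genes (build GRCm38.p6) show which of them carry a sequence like the interferon-stimulated response element, the site bound by the interferon-activated STAT and IRF factors. Each line runs 5′ to 3′ in the direction of transcription from 130 to 31 bases before the start, and capitals mark matches to GAAANNGAAA, the core of that element, or to TATAAA, the core of a TATA box.
Ifitm1, chr7:140967946-140968045, plus strand: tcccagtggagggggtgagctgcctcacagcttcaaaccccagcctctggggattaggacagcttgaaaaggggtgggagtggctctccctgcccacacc
Ifitm2, chr7:140955992-140956091, minus strand: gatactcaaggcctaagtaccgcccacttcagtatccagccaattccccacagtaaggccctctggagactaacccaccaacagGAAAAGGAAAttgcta
Ifitm3, chr7:141010775-141010874, minus strand: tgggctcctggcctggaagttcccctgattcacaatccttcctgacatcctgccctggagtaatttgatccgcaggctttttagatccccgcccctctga
Ifitm6, chr7:141016923-141017022, minus strand: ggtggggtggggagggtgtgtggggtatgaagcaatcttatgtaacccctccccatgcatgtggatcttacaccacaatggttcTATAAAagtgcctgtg

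Ifitm2 held 1 GAAANNGAAA match, whose first base lies 46 bases before the start. Ifitm3 held 2, with their first bases at positions 3 and 20 after its RefSeq start, in the 5′ untranslated part of the first exon. The 30 bases that begin 2 bases ahead of the first match are shown for both genes, with the same capitals.
Ifitm2, chr7:140955980-140956009, minus strand: agGAAAAGGAAAttgctagagaaagggcgg
Ifitm3, chr7:141010715-141010744, minus strand: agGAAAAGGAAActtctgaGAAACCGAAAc
The first 12 bases are identical in both genes, and 18 of the 30 are identical in all. No match to GAAANNGAAA was found in the windows of Ifitm1 and Ifitm6. The stretch printed for Ifitm1 (chr7:140967946-140968045) lies inside the deposited gene, which begins further upstream at 140967221. The bases before that upstream start of Ifitm1 were not searched. Of 32851 RefSeq windows searched on both strands, 2.98% held a match in the 250 bases before the start and 3.44% in 300 bases, which include the first 50 of the gene.

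Another 3 motifs were searched in the same way. TTCNNNGAA, the core of the gamma-activated site bound by STAT dimers, was found in Ifitm3, where it begins 14 bases after the start and overlaps the second GAAANNGAAA match, and in Ifitm6, where it begins 10 bases before the start. It was present in 8.3% of all 300-base windows. TATAAA was found on the coding strand of Ifitm6, 46 bases before the start, and on the other strand of Ifitm2, 175 bases before the start, against 13.6% of all windows. GAGGAA, an ETS core, was in none of the 4 windows and in 28.3% of all.

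**Figure D1:**
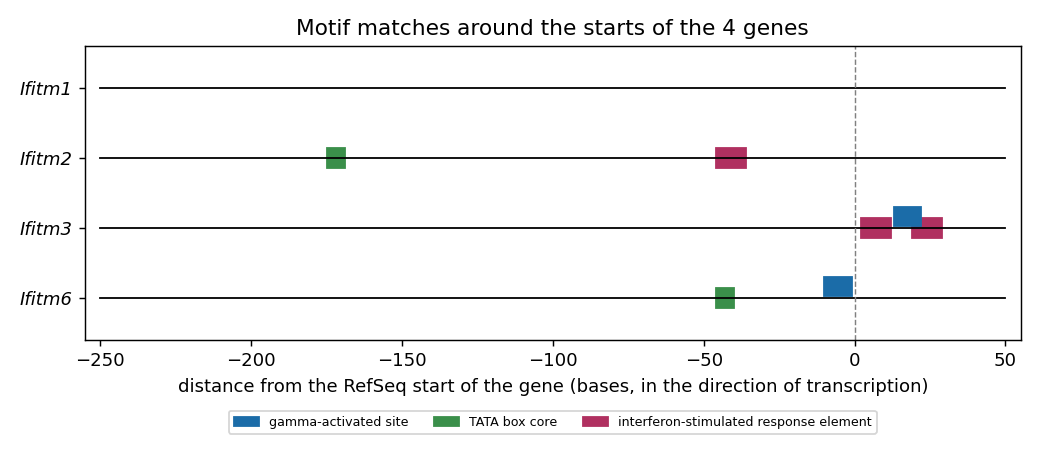
Matches to the motifs searched in the 300-base RefSeq window of each Ifitm gene. The horizontal axis is the distance in bases from the start, coloured boxes are matches drawn to their length on either strand, and the dashed line is the start. Ifitm1 has no match, Ifitm2 has 1 response-element match upstream and Ifitm3 has 2 just after its start.

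Depth ran from 16904969 to 20381489 counts per library. The 12 neutrophil marker genes were all tested and summed to between 171207 and 246678 CPM, the count of a gene scaled to a common library total. The scaling factors of edgeR (TMM, which correct CPM for differences in RNA composition) were between 0.967 and 1.08 in 5 libraries, while polarized cells of pair C stood apart at 0.876. Values are therefore given as deposited CPM and, for tests, after this scaling. In these bulk libraries, fewer cells of a type and less RNA per cell cannot be told apart.

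All 4 Ifitm genes were abundant. Ranked by counts, Ifitm2 was between place 55 and place 79 of all genes, Ifitm3 between 67 and 140, Ifitm6 between 80 and 166 and Ifitm1 between 221 and 464. Together they took 0.355% to 0.538% of all counts. Their summed CPM was 4498 ± 916 (SD, n = 3) for polarized and 4433 ± 522 for depolarized cells, so the family total differed between the groups by less than the spread of either. The lowest count of any member was 5035, for Ifitm1 in the polarized library of pair A, where counting error alone is 1.41%.

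Levels were set against each other per length, in RPKM (CPM per kilobase of the listed gene length). Ifitm2 was the highest in 6 of 6 libraries, between 2237 and 3384 RPKM, and Ifitm1 the lowest in 6 of 6, between 238 and 522 RPKM. Ifitm6 stood between 1349 and 2646 RPKM and Ifitm3 between 1259 and 2586 RPKM. Their order depended on the pair: Ifitm6 was above Ifitm3 in all 4 libraries of pairs A and B and below it in both libraries of pair C. The listed length of Ifitm6 is 541 bases, against 905 exon bases in GENCODE M21, so its place next to Ifitm3 also rests on the gene model.

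None of the 4 genes passed the threshold between depolarized and polarized cells. With pairs as a block, the quasi-likelihood test of edgeR called 32 of 9971 genes at an adjusted p under 0.05, which is 0.321% of genes, with 24 lower (0.241%) and 8 higher (0.0802%) in depolarized cells. Each log2 fold change is the depolarized less the polarized level. DESeq2, robust dispersion estimates, no count filter and a minimum of 100 counts in every library called 0.349%, 0.301%, 0.664% and 0.0761% of genes, and again 0 of the 4 members.

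Ifitm6 had the largest difference of the 4 and was the member whose groups did not overlap. In pairs A, B and C, polarized cells held 1033, 1432 and 1262 CPM and depolarized cells 912, 913 and 730.1 CPM. Every depolarized library was below every polarized one, an order that 3.14% of tested genes showed in this direction, 7.28% in the other and 10.4% in either. The means were 1242 ± 200.1 CPM and 852 ± 105 CPM (SD, n = 3). The fitted log2 fold change was -0.61 with a standard error of 0.20, a 1.52-fold difference. Its unadjusted p was 0.00736 and its edgeR adjusted p was 0.395, against 6.58% of genes with an unadjusted p under 0.05. Within pairs, the TMM-scaled difference was -0.12 in pair A, -0.69 in pair B and -1.02 in pair C, so its size varied widely while its sign did not.

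Ifitm1, the surface-directed member, was at 261, 422 and 418 CPM in polarized cells of pairs A, B and C and at 348, 571 and 564 CPM in their depolarized partners. The groups overlapped, because both libraries of pair A were low, but within each pair the depolarized library was higher. In CPM the difference was 33.5% in pair A, 35.5% in pair B and 34.9% in pair C. With TMM scaling the 3 differences spread to 0.48, 0.40 and 0.20 on the log2 scale, since the scaling raises the polarized library of pair C. The fitted value was 0.36 with a standard error of 0.18 (edgeR unadjusted p 0.0553, adjusted p 0.778).

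Ifitm2 was at 1403, 1695 and 1945 CPM in polarized cells of pairs A, B and C and at 1772, 1973 and 2122 CPM in depolarized cells. The groups overlapped. The difference in CPM was 26.3%, 16.4% and 9.07%, above 0 in 3 of 3 pairs, while after TMM scaling it was 0.40, 0.18 and -0.10 on the log2 scale, so that pair C changed its sign with the scaling. The fitted value was 0.16 with a standard error of 0.18 (edgeR adjusted p 1).

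Ifitm3, the best known antiviral member, was at 854, 1017 and 1753 CPM in polarized cells of pairs A, B and C and at 904, 929 and 1561 CPM in depolarized cells. Both libraries of pair C were far above the other 4, and the depolarized library was above the polarized one in pair A only. The TMM-scaled differences were 0.15, -0.17 and -0.39, and the fitted value was -0.14 with a standard error of 0.18 (edgeR adjusted p 1).

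**Figure D2:**
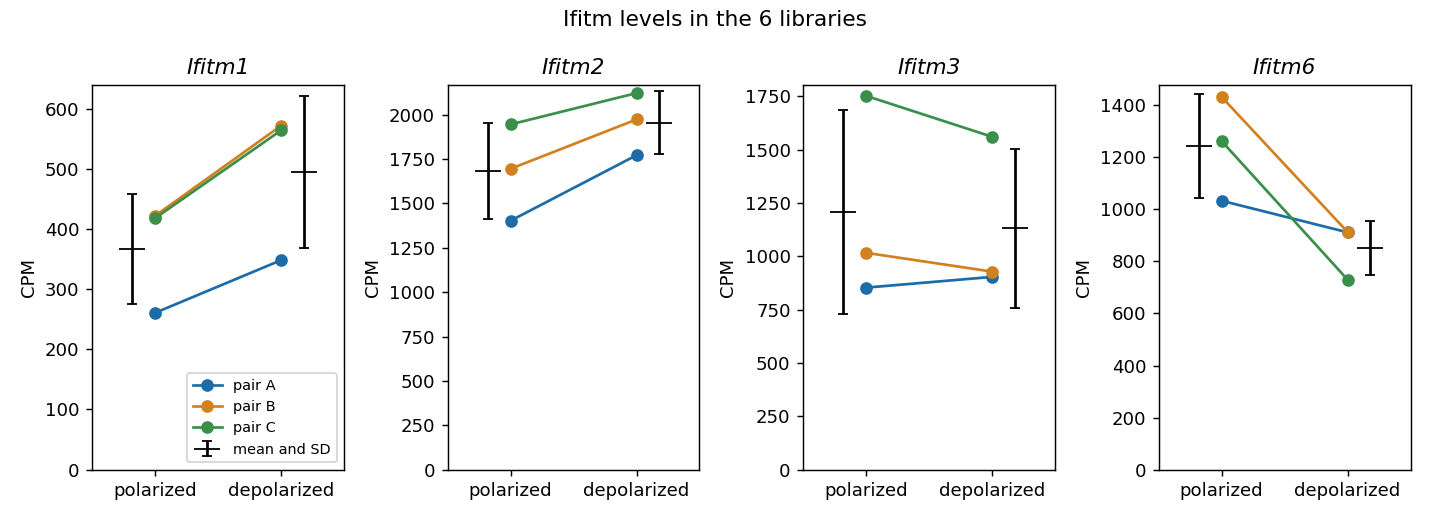
Deposited CPM of each Ifitm gene in the 6 libraries, 1 panel per gene with its own axis from 0. Coloured points joined by a line are the 2 libraries of a pair, and black bars are the mean and SD of the 3 libraries of a group. The Ifitm6 points of the 2 groups do not overlap, the Ifitm1 line climbs by a similar share in each pair, and Ifitm3 separates pair C from pairs A and B.

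These results depended on pair C. Without it the edgeR test called Ifitm1 (log2 fold change 0.44, adjusted p 0.00148) and Ifitm2 (0.29, adjusted p 0.0416) higher and Ifitm6 (-0.40, adjusted p 0.00253) lower in depolarized cells, while Ifitm3 was at -0.01 (adjusted p 0.974). That fit of 4 libraries called 1018 of 10102 genes, or 10.1%, so 3 of 4 members stand against a far higher background than in the fit of all pairs. Without pair A or without pair B, 0 of the 4 were called, where the fits called 0.986% and 0.448% of genes.

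The 4 genes kept 1 order of difference in every pair. In 3 of 3 pairs the difference between depolarized and polarized cells was most positive for Ifitm1, followed by Ifitm2, Ifitm3 and Ifitm6. This order is free of library scaling, because it is the same as the statement that each of the 6 ratios between members, taken within a library, was higher in the depolarized library of each pair (18 of 18 comparisons, which share genes and libraries). An exact two-sided permutation test that flips the sign of each pair gave p 0.25 for each ratio (0.25 after adjustment over the 6), the smallest value that 3 pairs can give.

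**Figure D3:**
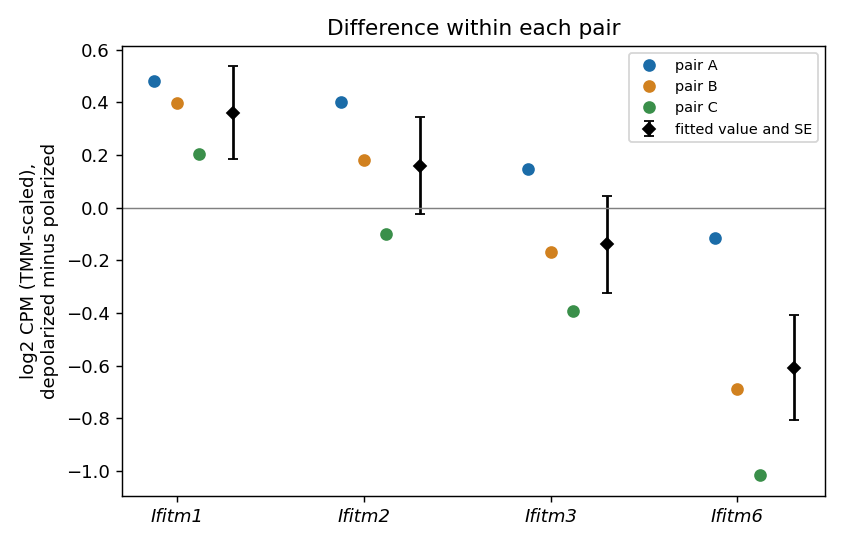
Differences between depolarized and polarized cells on the log2 scale of TMM-scaled CPM. Coloured points are the 3 pairs and black diamonds the fitted value with its standard error. In each pair the points descend from Ifitm1 through Ifitm2 and Ifitm3 to Ifitm6.

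The ratio of Ifitm1 to Ifitm6 moved most. In RPKM it was 0.125, 0.146 and 0.164 in the polarized cells and 0.189, 0.309 and 0.382 in the depolarized cells of pairs A, B and C, and the groups did not overlap. The mean difference was 0.97 ± 0.33 on the log2 scale (SD over 3 pairs). The ratio of Ifitm2 to Ifitm6 was 1.17, 1.02 and 1.33 in polarized and 1.68, 1.86 and 2.51 in depolarized cells, again without overlap, with a mean difference of 0.77 ± 0.22. The other 4 ratios overlapped between the groups. Their mean differences were 0.50 for Ifitm1 to Ifitm3, 0.47 for Ifitm3 to Ifitm6, 0.30 for Ifitm2 to Ifitm3 and 0.20 for Ifitm1 to Ifitm2. The ratio of Ifitm2 to Ifitm3 had the narrowest spread over pairs, with differences of 0.25, 0.35 and 0.29.

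As shares of the summed RPKM of the 4 genes, Ifitm2 made up 38.0% ± 1.46 (SD, n = 3) in polarized and 45.8% ± 0.986 in depolarized cells. Ifitm6 made up 32.7% ± 4.51 and 23.4% ± 4.95. For both genes the groups did not overlap. Ifitm3 made up 24.6% and 24.2%, and Ifitm1 4.70% and 6.58%, with overlap in each case. The mix thus held a larger Ifitm2 share and a smaller Ifitm6 share in each depolarized library, at a mean family total that differed by less than its spread. Shares of a whole depend on each other, so a lower Ifitm6 raises the other shares. The CPM of Ifitm2 itself overlapped between the groups.

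**Figure D4:**
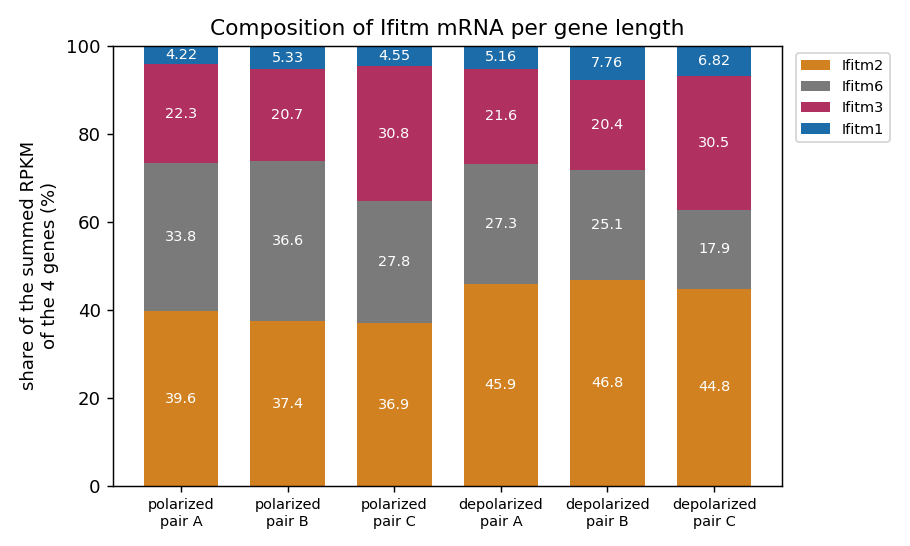
Share of each Ifitm gene in the summed RPKM of the 4 genes (percent), 1 bar per library. Ifitm2 takes 36.9% to 39.6% in the polarized and 44.8% to 46.8% in the depolarized libraries, and Ifitm3 takes a larger share in both libraries of pair C.

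Markers of early neutrophils and progenitors moved in the same direction as Ifitm6. Of 11 tested genes of this list, edgeR called 6 lower in depolarized cells, against 0.241% of all tested genes. These were Mpo, Elane, Prtn3, Ctsg, Ms4a3 and Fcnb, which encode granule enzymes and other early products. Of the 11 values 0 were above 0, and the median log2 fold change of the list was -3.55. Mpo, myeloperoxidase, had a log2 fold change of -5.30 (edgeR adjusted p 1.96e-08). The summed level of the list was 256 to 542 CPM in polarized and 164 to 229 CPM in depolarized libraries, and none of its genes was at 0 in all libraries. Cd63, which was not called, made up 178 to 218 CPM of this in polarized and 128 to 202 CPM in depolarized libraries. Among the neutrophil markers, Camp and Ltf, both secondary granule genes, fell by 1.46 and 1.38 (edgeR adjusted p 0.0144 and 0.0427). Of the 12 genes of that list, 2 had values above 0. These were Csf3r (0.48, edgeR adjusted p 0.536) and Cxcr2 (0.11). The groups did not overlap for 4 genes lower in depolarized cells (S100a9, Retnlg, Camp and Ltf), against 3.14% of all tested genes. They did not overlap for 1 gene that was higher (Csf3r), against 7.28% of all tested genes. The list summed to 199240 to 246678 CPM in polarized and 171207 to 194363 CPM in depolarized libraries. The part of these cells in the Ifitm6 difference was not tested.

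Of the 11 tested monocyte and macrophage markers, 0 were called by edgeR, and their sum was 1016 to 1268 CPM in polarized and 930 to 1055 CPM in depolarized libraries. Most of the list lay in the direction of Ifitm6: the median log2 fold change was -0.92, and 9 of 11 values were below 0. Most of those below 0 were low genes. Ccr2, C1qa, C1qc, F13a1, Mrc1 and Mertk had group means of at most 2.08 CPM. Over all 9971 tested genes, 4949 values were above 0. The groups did not overlap for 5 genes that were lower in depolarized cells, against 3.14% of all tested genes. They did not overlap for 1 gene that was higher, against 7.28% of all tested genes. Ly6c2, the most abundant of the list, was at 915 ± 140 CPM in polarized cells and 681 ± 46.5 CPM in depolarized ones without overlap. Its TMM-scaled log2 differences were -0.02, -0.51 and -0.92 in pairs A, B and C. Ccr2, the chemokine receptor of inflammatory monocytes, was low in both groups, at 1.55, 1.47 and 1.12 CPM in polarized cells and 0.0491, 0 and 0.532 CPM in depolarized ones without overlap (log2 fold change -3.22, edgeR unadjusted p 0.000881, adjusted p 0.139). Csf1r, the receptor that monocytes need, was 1 of the 2 genes above 0, at 106 ± 5.0 CPM and 163 ± 5.74 CPM, and Adgre1 was the other. Cx3cr1 was at most 0.73 CPM in any library, and no gene of the list was at 0 in all libraries. Their part in the Ifitm6 difference was not tested. Of the other lists, 1 of 8 tested lymphocyte genes was called (Nkg7, lower), and 0 of 2 dendritic cell, 0 of 4 eosinophil, basophil and mast cell, 0 of 4 erythroid and platelet and 0 of 2 stromal and endothelial genes. The eosinophil, basophil and mast cell list varied widely, with a sum of 37.3 CPM in the polarized and 56.0 CPM in the depolarized library of pair A, 424 and 167 CPM in pair B, and 169 and 45.3 CPM in pair C. Its eosinophil granule genes Epx (-2.17, edgeR adjusted p 0.123) and Prg2 (-1.37, adjusted p 0.464) had values below 0, as Ifitm6 had, while Siglecf (0.59) and Ccr3 (0.66) had values above 0. Epx differed between pairs (adjusted p 0.0367, highest in pair B), and so did Nkg7 (adjusted p 0.00552, highest in pair C). The part of these cells in the Ifitm differences was not tested.

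The level of interferon-stimulated genes differed between the 3 pairs, and the Ifitm genes were set beside it. A list of 62 such genes without any Ifitm gene had 57 members tested. Of these, 35 differed between the pairs in the edgeR test of the pair terms, against 77 of all 9971 genes (0.772%). The highest level was in pair C for 56 of the 57 and in pair A for Samd9l, while over all genes pair C was the highest for 3393. The fitted range between the highest and lowest pair had a median of 1.5 on the log2 scale over the list and 0.42 over all genes. The count depended on the libraries and the scaling. It was 33 without pair A, 22 of 58 without pair B and 15 without pair C, where the test compares pairs A and B. Those fits called 1.1%, 0.607% and 10.6% of all genes between pairs. With CPM left unscaled the count was 16, in a fit that called 23 of all genes between pairs.

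The 3 genes with the lowest p were Ifit1, Ifit3 and Ifit3b, RNA-binding antiviral proteins. Ifit1 was at 29.6, 22 and 133 CPM in polarized cells of pairs A, B and C and at 39.1, 31.2 and 174 CPM in depolarized cells, with an edgeR adjusted p of 2.01e-06 between pairs. Ifit3 and Ifit3b, near-identical copies whose reads may be split between them, had the same adjusted p and ranges of 3.16 and 2.96. The other genes called were Ifit2, Ifit1bl1, Ifi27l2a, Isg15, Isg20, Rsad2, Usp18, Irf7, Rtp4, Xaf1, Ly6e, Bst2, Cxcl10, Zbp1, Herc6 and Epsti1, the 2′-5′ oligoadenylate synthetase genes Oas1a, Oas1g, Oas2, Oas3, Oasl1 and Oasl2, the GTPase genes Gbp2, Gbp3, Gbp7, Igtp, Irgm1 and Ifi47, and Slfn5, Slfn8, Ifi204 and Ifi207. Their ranges lay between 1.17 for Ifi204 and 3.87 for Cxcl10.

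As a mean of log2(CPM + 1) over the 57 genes, the list stood at 4.88, 4.74 and 5.89 in pairs A, B and C for polarized cells and at 5.05, 5.06 and 6.26 for depolarized cells. Pairs A and B were thus close to each other, with pair means of 4.96 and 4.90, and pair C was at 6.07.

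Ifitm3 was high in the same pair as this list. Its pair means were 879, 973 and 1657 CPM, so that pair C was at 1.89 times pair A and 1.70 times pair B, and both libraries of pair C were above the other 4. The fitted range was 0.97 on the log2 scale, with an unadjusted p of 0.000427, in a test where 8.16% of genes had an unadjusted p under 0.05. Its edgeR adjusted p of 0.0546 narrowly missed the threshold, and it passed with robust dispersion estimates (0.0247), without the count filter (0.000178), with at least 100 counts in every library (0.0264) and in DESeq2 (0.000258). It did not pass with RLE factors (0.0618), upper quartile factors (0.0756) or library totals only (0.129). The 4 fits in which it passed called 0.903%, 1.09%, 1.27% and 0.885% of genes. Without pair C, the range between pairs A and B was 0.03. With pair A or pair B left out 0 members were called between the remaining pairs, in fits that called 1.1% and 0.607% of genes.

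Ifitm1 also ranged between pairs but in another order. Its pair means were 304, 497 and 491 CPM, so pair A was low and pairs B and C were close, with pair C at 0.988 times pair B. The fitted range was 0.75 (edgeR unadjusted p 0.00844, adjusted p 0.328), and 0.14 without pair A. Without pair C the range between pairs A and B was 0.59 (adjusted p 3.93e-06), in a fit that called 10.6% of genes between these pairs. Pairs A and B were thus apart in Ifitm1. The mean of the interferon-stimulated list was 4.96 and 4.90 in them, but that fit also called 15 of its 57 genes between these pairs. The cause of the Ifitm1 difference between pairs was not tested.

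Ifitm2 had pair means of 1587, 1834 and 2034 CPM and a fitted range of 0.43, about the median of all genes (edgeR adjusted p 0.736). Ifitm6 had pair means of 972, 1172 and 996 CPM and a fitted range of 0.10 (adjusted p 0.984). Pair C was at 1.02 times pair A and 0.85 times pair B for Ifitm6. These means average both populations, whose order between pairs differed. Pairs A, B and C were at 1033, 1432 and 1262 CPM in polarized cells and at 912, 913 and 730.1 CPM in depolarized ones. TMM scaling also raises the polarized library of pair C. The pair means of Ifitm6 therefore do not show how its level relates to the interferon-stimulated list. Whether the members differ from each other in their levels between pairs was not tested with a model. Their ratios are given per library. The ratio of Ifitm3 to Ifitm6 in RPKM was 0.660, 0.567 and 1.11 in polarized and 0.791, 0.812 and 1.71 in depolarized cells of pairs A, B and C, and the ratio of Ifitm2 to Ifitm3 was between 1.78 and 2.30 in the libraries of pairs A and B and at 1.20 and 1.47 in pair C. Mitochondrial transcripts were also higher in pair C, at 0.699% and 0.743% of counts against 0.547% to 0.579% in the other 4 libraries, and 4 of the 11 early neutrophil genes (Mpo, Elane, Prtn3 and Fcnb) differed between pairs with the highest level in pair C. The summed early list was 256, 344 and 542 CPM in polarized and 215, 229 and 164 CPM in depolarized cells of pairs A, B and C. Cd63, which was not called, held most of the depolarized sums, at 190, 202 and 128 CPM. The 4 named genes were highest in pair C in depolarized cells too, with Mpo at 0.294, 0.208 and 5.86 CPM. The part of mitochondrial transcripts or early neutrophil genes in these differences was not tested.

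**Figure D5:**
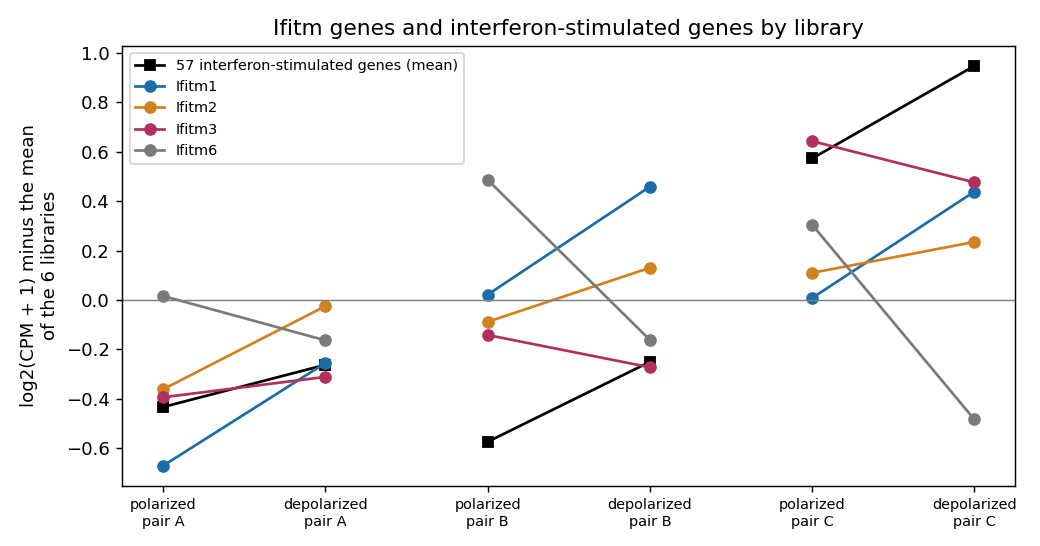
Level of each Ifitm gene and of the 57 interferon-stimulated genes (mean) in each library, as log2(CPM + 1) minus the mean of the 6 libraries. Lines join the 2 libraries of a pair. The list and Ifitm3 are high in both libraries of pair C, Ifitm1 is low in pair A, and Ifitm6 is below its own polarized library in each depolarized one.

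Most interferon-stimulated genes had fitted values above 0. Of the 57 genes, 0 were called between depolarized and polarized cells by edgeR, 48 had a fitted value above 0, and the median was 0.20 against -0.00 over all genes. The mean of the list was higher in the depolarized library of each pair, by 0.17, 0.32 and 0.37 on the log2 scale of unscaled CPM. After TMM scaling these differences were 0.23, 0.29 and 0.16, so that pair C had the largest difference before scaling and the smallest after it. Ifitm1 (0.36) and Ifitm2 (0.16) had fitted values on the same side, although Ifitm2 was at -0.10 in pair C after scaling, and Ifitm3 (-0.14) and Ifitm6 (-0.61) on the other, differences between members that the ratios above describe. Without pair C, 18 of the 57 were called by edgeR, 17 of them higher in depolarized cells, in the fit that called 10.1% of genes. The most abundant members of the list were Slfn1, Ly6e and Rtp4. Ly6e, a surface protein that, like the IFITM proteins, acts on virus fusion, was at 341, 469 and 786 CPM in polarized cells and at 515, 769 and 1171 CPM in depolarized ones, with a fitted value of 0.56 (adjusted p 0.360) and a range between pairs of 1.26 (adjusted p 0.0135). Slfn1 had a value of 0.07 and Rtp4 of 0.24, both with an adjusted p of 1.

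Interferon transcripts themselves were at or near 0. Of 21 interferon genes, 19 had 0 counts in all 6 libraries, and Ifnb1 and Ifnk had 2 counts each, all in depolarized cells, below the floor of 3 counts, which is 0.147 to 0.177 CPM in a library. Among receptors, kinases, factors and inhibitors of interferon signalling, 16 of 18 were tested, 0 were called by edgeR in either comparison, and the median difference between depolarized and polarized cells was 0.14. The most abundant were the kinase gene Jak1 (0.08), the phosphatase gene Ptpn6 (0.15) and the repressor gene Irf2 (0.08), each with an adjusted p of 1. Their median range between pairs was 0.34, close to that of all genes, where the interferon-stimulated list had 1.5.

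Proteins that modify or bind IFITM proteins gave no call. Of 14 genes for palmitoyltransferases, ubiquitin ligases, other modifying enzymes and membrane partners, 13 were tested, 0 were called by edgeR between the groups or between pairs, and the median difference was -0.11. The most abundant were the tetraspanin gene Cd9 (1110 ± 245 CPM in polarized cells and 1069 ± 138 CPM in depolarized ones), Vapa (193 ± 40.3 and 191 ± 14.9 CPM), whose product tethers membranes to the endoplasmic reticulum, and the palmitoyltransferase gene Zdhhc20 (125 ± 22.1 and 135 ± 3.82 CPM). In each of these 3 genes the groups overlapped.

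The other CD225 genes were low or not detected. Of 10 found, 3 were tested and 0 called. Tmem91 was at 4.24, 3.58 and 4.23 CPM in the polarized cells and at 7.36, 8.18 and 8.99 CPM in depolarized cells without overlap, with a fitted value of 0.95 and a standard error of 0.27 (edgeR adjusted p 0.229). Ifitm10 had -0.53 (adjusted p 0.783) and Ifitm5, the bone-specific paralog that lies beside the cluster, 0.58 (adjusted p 0.906), each at a few CPM. Ifitm7 had at most 0.365 CPM in any library, and Prrt1 and Syndig1 at most 0.261 and 0.0521 CPM. Prrt2, Trarg1, Tmem233 and Syndig1l had 0 counts in all libraries.

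Genes around the cluster did not share the members' levels. Beside the 4 genes, 15 lie within 100 kb of the cluster, 7 of them were tested and 0 were called by edgeR in either comparison, with a median difference of 0.16. Psmd13 and Bet1l were the most abundant, between 75.5 and 101 CPM and between 54.2 and 66.1 CPM. Sirt3 (0.49) and Pgghg (0.27) were higher in depolarized cells without overlap, an order that 7.28% of all tested genes showed in this direction. Ric8a had 0.16, Psmd13 0.05, Bet1l 0.06, Ifitm5 0.58 and Gm15542 -0.41. Nlrp6, B4galnt4, Pkp3 and Sigirr were below 1 CPM, and Cox8b, Gm17387, Ano9 and Gm24962 had 0 counts. The immediate neighbours of this highly transcribed cluster were thus at a small share of its level.

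Other genes that act against viruses gave no call. Of 12 tested, 0 were called by edgeR in either comparison, and the median difference was 0.11. The most abundant were Samhd1, which depletes deoxynucleotides (1101 ± 201 CPM in polarized cells and 1215 ± 80.9 CPM in depolarized ones), Cst3 (568 ± 80.2 and 741 ± 172 CPM) and Serinc3 (320.1 ± 50.7 and 353 ± 38.1 CPM).

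For each member, the genes with the most similar TMM-scaled log2 CPM over the 6 libraries were listed among 5233 genes of at least moderate level. This is a description of 6 libraries that share pairs and have similar depth. All r values here are on the scaled values, and the scaling shifts all genes of a library together, which can raise r. The CPM printed beside them are unscaled. For Ifitm3 the closest was Ifi27, an interferon-inducible gene outside the list (Pearson r 0.995), at 77.2, 103 and 179.7 CPM in polarized cells and 86.0, 84.0 and 150.01 CPM in depolarized ones. Cox8a (r 0.994) and Lamtor5 (r 0.988) followed. In unscaled CPM, Lamtor5 varied little, at 34.0, 36.0 and 36.1 in polarized and 33.3, 36.8 and 38.6 in depolarized cells of pairs A, B and C. For Ifitm6 these were mt-Nd6 (0.986), Chil5 (0.982) and Tmem205 (0.981), for Ifitm1 Eif5a (0.987), Sf3b5 (0.984) and Cib1 (0.964), and for Ifitm2 Fcrl1 (0.994), Nup107 (0.993) and Ftl1 (0.993). Among the members themselves, r was 0.81 for Ifitm1 with Ifitm2, 0.82 for Ifitm2 with Ifitm3 and 0.53 for Ifitm1 with Ifitm3, and between -0.26 and 0.23 for Ifitm6 with the other 3.

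The paralogs differ in how surely reads can be told apart. Of the 50-base stretches of the annotated transcripts, 48.5% in Ifitm2, 10% in Ifitm3 and 5.02% in Ifitm1 also occur in another gene of GENCODE M21, and 0 of 854 in Ifitm6. At 75 bases the shares were 42.0%, 0.662%, 0.582% and 0. Most of the overlap of Ifitm2 is with Gm45717, a gene model that covers 268 of its 655 exon bases and is not analysed here. The listed processed pseudogenes were low: Gm7676 had 520 counts over the 6 libraries, Gm11951 had 78, Gm8865 53 and Gm2840 38. Adding the pseudogene counts left every ratio between members within the spread of the pairs, while the level of Ifitm2 remains uncertain to the extent that reads shared with Gm45717 were dropped or assigned elsewhere.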

How the data were processed

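Per the labels, each of the 6 libraries is a gene table made by the submitters. Its deposited count column holds whole, unscaled numbers. The deposited CPM values equal the counts scaled to the library total, and the deposited RPKM values equal CPM per kilobase of listed length. Per the submitters' processing notes, tools were bcl2fastq, STAR 2.0.4b, Subread and featureCounts 1.45, with build GRCm38. Settings for strand, multi-mapping and annotation release were not given in the sources used here. Symbols came from a reference table (40254 of 41388 genes).

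Counts were tested in R 4.3.3 with edgeR 4.0.16: filterByExpr, TMM, and the quasi-likelihood F test with pair and group (2 residual degrees of freedom), adjusted by Benjamini-Hochberg over 9971 genes, which hold 99.9% of counts. The pair terms were tested jointly in the same fit. Standard errors are approximate (fold change over the root of F). The code was tested on simulated counts. Pairing rests on the design text. Deviations from group means correlated at 0.08, 0.27 and 0.03 across genes in pairs A, B and C. P-values of this fit set a difference against the variation left after pair and group are fitted, in these samples only. Alternatives were DESeq2 1.42.0, robust dispersion, RLE, upper quartile or no scaling factors, other filters, no block and leaving out each pair.

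The members, lists, design and rule for named genes were chosen with earlier results of these data known. The rule names the members, the CD225 list, genes within 100 kb, called members of each list, otherwise the 3 most abundant, the 3 interferon-stimulated genes with the lowest p between pairs, and the 3 genes most correlated with each member. Gbp5, Tmem265 and Shfl were not analysed here. The printed windows were chosen after the motif matches were seen. The RefSeq promoter table matched 4 of 4 members.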

Additional observations from a re-analysis of the deposited data

How the results depend on the processing

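No fitted value or mean difference that was rerun changed its direction under any alternative. Within pair C alone, the Ifitm2 difference did change its sign with the scaling, as given above. Genes called higher in depolarized cells numbered 8 (18 in DESeq2, 50 without a filter, 2 with at least 100 counts in every library, 0 with library totals only, 9 to 500 leaving out 1 pair), and genes called lower 24 (96, 2 and 6 under the same filters and library totals, 36 to 518 leaving out 1 pair). Without the replicate block edgeR called 0 in either direction; for the members the pairing changed no call, and Ifitm6 was at -0.61 without the block. Between pairs 77 genes were called (23 with library totals, 240 without a filter, 61 to 1075 leaving out 1 pair). Members called between groups numbered 0, and 0 to 3 leaving out 1 pair, with 3 without pair C. Members called between pairs numbered 0, and 1 (Ifitm3) with robust dispersion, without a filter, with at least 100 counts or in DESeq2, and 0 to 1 leaving out 1 pair. Leaving out 1 pair, the log2 fold change ranged from 0.30 to 0.44 for Ifitm1, 0.041 to 0.29 for Ifitm2, -0.28 to -0.01 for Ifitm3 and -0.85 to -0.40 for Ifitm6. The cause of these shifts was not tested; fits without a pair have fewer residual degrees of freedom. The 6 ratios between members moved by less than their spread over pairs in each of 5 alternatives. Scaling CPM by TMM and adding pseudogene counts were chosen after seeing the data; the first took the range of the interferon-stimulated list between pairs from 1.17 to 1.33. Depth limits the interferon genes, not the members.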
